A study of Mus musculus with 2 samples.

Results

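The peripheral myelin protein 22 (PMP22) family genes Emp1, Emp2, Emp3 and Pmp22, together with the related gene Perp, were examined in mouse embryonic stem cells that switch on 4 reprogramming factors. The 5 genes were chosen by symbol, with earlier results of the same comparison in view, from the 19938 genes measured by probesets that the platform annotation assigns to exactly 1 gene. Each of the 5 has 1 such probeset, and 0 further probesets share one of them with another gene. The comparison that chose them is the one reported here, so the values are a description and carry no test.

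The array labelled plus doxycycline held RNA of i-OSKM-ESC after 24 hours with doxycycline in the medium at 4 µg/mL. The array labelled no doxycycline held RNA of i-OSKM-ESC that received fresh medium without the drug. These cells were engineered from the KH2 mouse embryonic stem cell line, of strain 129, to carry an inducible set of the factors c-Myc, Klf4, Oct4 and a tagged form of Sox2, which doxycycline switches on. Both cultures were grown on gelatin-coated plastic and carry the same transgenes. The sources used here do not say whether the line is a single clone. No culture of the parental line with the drug was analysed here, so the effect of the drug and that of the factors cannot be told apart. Each group has 1 array, which limits the precision, and no difference below has a replicate error or a p-value.

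PMP22-like proteins are small membrane proteins that cross the membrane 4 times and share a fold with the claudins of tight junctions. Pmp22 encodes a major protein of peripheral nerve myelin, and changes in its dose cause inherited neuropathies in human. The epithelial membrane protein genes Emp1, Emp2 and Emp3 are expressed in many tissues, and their products have been linked to growth, adhesion and integrin traffic. Perp encodes a p53 and p63 target first described in apoptosis, and in mouse skin its product is a part of desmosomes, the junctions that tie epithelial cells together.

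The promoter of Emp1 is shown because Emp1 had the largest difference of the 5 genes. RefSeq windows (build GRCm38.p6) that run from 250 bases before to 50 bases after an annotated start were on hand for 4 of the 5 genes, with 9 windows in all. Emp1 has 2 of them on chromosome 6, both on the plus strand. Start 1 is the upstream one, at chr6:135362681-135362980, and start 2 is at chr6:135367243-135367542. Capitals mark matches to the AP-1 motif TGANTCA, the site of Fos and Jun proteins, and the other bases are in lower case.
Emp1 start 1: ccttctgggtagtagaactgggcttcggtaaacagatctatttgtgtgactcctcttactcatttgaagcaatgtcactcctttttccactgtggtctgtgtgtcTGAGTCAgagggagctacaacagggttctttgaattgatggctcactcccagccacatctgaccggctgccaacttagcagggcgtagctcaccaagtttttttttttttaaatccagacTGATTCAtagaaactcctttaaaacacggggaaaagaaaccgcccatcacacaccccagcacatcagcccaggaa
Emp1 start 2: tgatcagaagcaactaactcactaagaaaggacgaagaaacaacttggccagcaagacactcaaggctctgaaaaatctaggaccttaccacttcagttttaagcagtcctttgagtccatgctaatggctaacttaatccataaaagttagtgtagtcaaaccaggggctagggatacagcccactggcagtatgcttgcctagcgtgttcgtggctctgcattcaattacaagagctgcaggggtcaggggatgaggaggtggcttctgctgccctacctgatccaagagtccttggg

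The window of Emp1 start 1 held 2 AP-1 matches, which begin 145 and 25 bases upstream of the start, and start 2 held 0. Of all 32851 windows of 300 bases in the RefSeq table, 7.81% held at least 1 AP-1 match on either strand and 0.460% held 2 or more. AP-1 was 1 of 7 motifs searched, and these shares make no allowance for that number. The windows of Emp2, Emp3 and Pmp22 held no AP-1 match, and no window of Perp was analysed here. Motifs of the induced factors were searched on both strands in the same way. The octamer of Oct4 (ATGCAAAT, in 1.74% of all windows), the SOX core (ACAATG, 12.6%) and the E-box of c-Myc (CACGTG, 7.15%) matched in 0 of the 9 windows. The CACCC box, a core of Krüppel-like factor sites, matched in 6 of 9 windows, among them Emp1 start 1, against 57.5% of all windows. The MCAT element of Tead factors (CATTCC, 14.7%) matched once, in a Pmp22 window, and the TATA box (TATAAA, 13.6%) once, in an Emp3 window. In the 9 windows, 0 matches of different motifs shared bases, and a match does not show that a factor binds. Windows for 2 of the 4 Pmp22 starts overlap each other.

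Emp1 was the most changed gene of the family, with a log2 value of 11.38 in the array labelled plus doxycycline and 9.24 in the array labelled no doxycycline. Its log2 difference was 2.14, or 4.40-fold higher with doxycycline, which placed it 6th from the top among the 11191 genes that passed the expression filter. The filter asked that the higher value be at least 6.48, the median over both arrays and all probesets. Genes were also sorted into 20 bins of mean value, and 0 of the 997 genes in the bin of Emp1 had a larger difference. The robust SD of the differences in that bin was 0.185, a spread across genes that holds response and noise together and is no error between cultures.

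Perp came next, at 10.47 in the array labelled plus doxycycline and 9.62 in the array labelled no doxycycline. The difference of 0.85, or 1.80-fold, was under the 2-fold rule used for calls. Perp lay in the same bin as Emp1, where 8 genes had a larger difference, and 157th among all genes passing the filter. Both genes had values well above the filter in each array. Emp1 stood 4.89 above it with doxycycline and 2.76 without, and Perp stood 3.99 above it with doxycycline and 3.14 without.

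**Figure D1:**
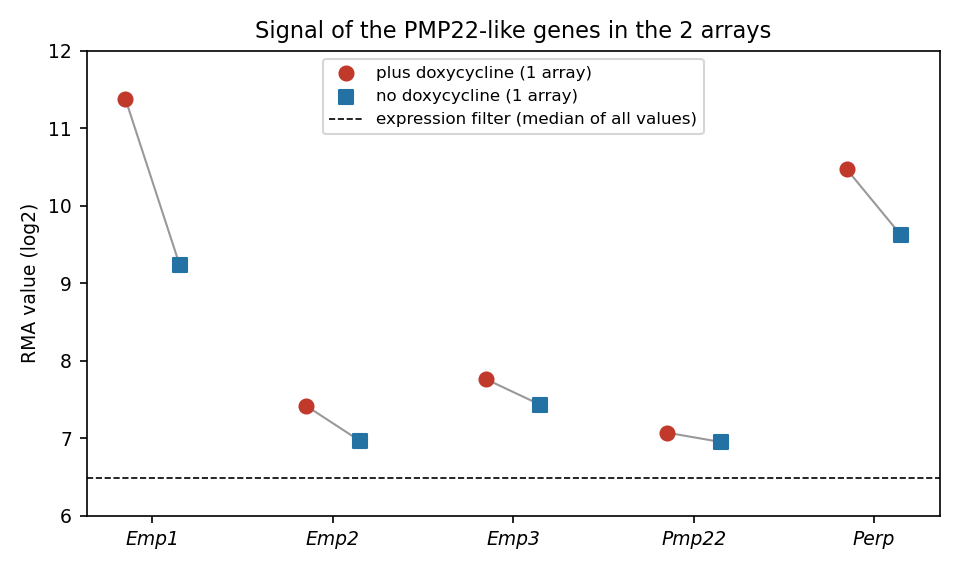
The RMA value on the log2 scale is plotted for Emp1, Emp2, Emp3, Pmp22 and Perp in the plus doxycycline array (red circles) and the no doxycycline array (blue squares), 1 array each, with the filter of 6.48 as a dashed line. Emp1 lies at 11.38 with doxycycline and 9.24 without it, while the other EMP genes and Pmp22 lie close to the filter in both arrays; brightness depends on the probes, so heights of different genes are not to be compared.

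The other EMP genes and Pmp22 showed small differences. Emp2, whose product acts on integrins and caveolae, had 7.42 with doxycycline and 6.97 without it, a difference of 0.46 or 1.37-fold. Emp3 had 7.76 with doxycycline and 7.43 without it, a difference of 0.33 or 1.26-fold. Pmp22 had 7.07 with doxycycline and 6.95 without it, a difference of 0.12 or 1.09-fold. The robust SD in their bins of like mean value was 0.294 for Emp2, 0.269 for Emp3 and 0.297 for Pmp22, so that Emp2 lay 1.55 and Pmp22 0.406 such SDs from 0. In the bin of Emp2, 60 of 997 genes had a larger difference, against 84 for Emp3 and 360 for Pmp22. In the no doxycycline array, Emp2 stood 0.48 and Pmp22 0.47 above the filter, and the table gives no detection call by which such dim signals could be told from background.

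The 5 genes passed the filter and all had positive differences, with a median of 0.46 and a range from 0.12 to 2.14. The median over the 11191 genes passing the filter was -0.03, and 44.4% of them had positive differences. Under the 2-fold rule 1 of 5 members was higher, Emp1, where 0.92% of all genes passing the filter were, and 0 were lower, where 0.768% were. At 1.5-fold, Emp1 and Perp were higher, 2 of 5, beside 3.24% of all genes, and 0 members were lower, beside 3.8%. The members were chosen on this comparison, so these shares show nothing about the family beyond its values. As a scale for the smaller differences, the log2 differences of probesets of the same gene had a within-gene SD of 0.167, from 492 genes with 2 probesets passing the filter. It is a spread between probes on the same arrays that leaves out variation between cultures. The difference of Pmp22 was smaller than that SD, and those of Emp3 and Emp2 were 1.97 and 2.73 times as large. That SD pools genes of any brightness above the filter. Against the wider robust SD of their own bins, Emp3 lay 1.22 and Emp2 1.55 SDs from 0.

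**Figure D2:**
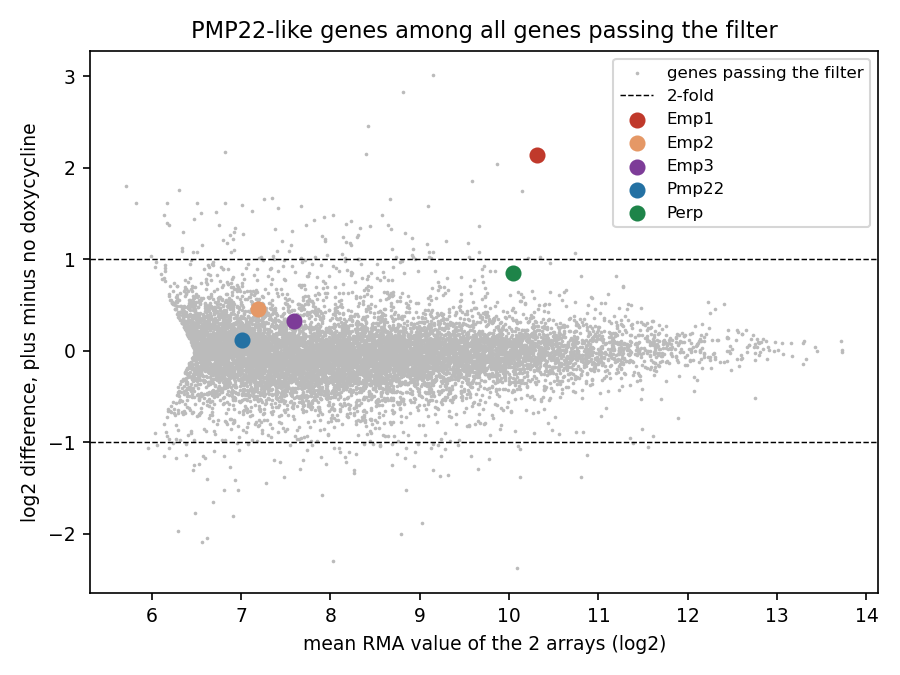
Each grey point is 1 of the 11191 genes passing the filter, with the mean RMA value of the arrays (log2) on the x axis and the log2 difference, plus minus no doxycycline, on the y axis; dashed lines mark 2-fold. Emp1 lies at 2.14, above the 2-fold line, Perp at 0.85, below it, and Emp2, Emp3 and Pmp22 lie within the cloud.

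The difference of Emp1 was set against the wider PMP22-claudin superfamily. Of 28 listed relatives outside the claudins, 27 were measured and 9 passed the filter, 0 of them 2-fold higher and 1 lower. The median over those measured was 0.12. Over all genes passing the filter, 0.92% were higher and 0.768% lower. The lower gene was Cacng7, which encodes an auxiliary subunit of AMPA-type glutamate receptors, with 8.64 in the plus doxycycline array and 9.99 in the no doxycycline array, a 2.55-fold difference. Lhfp had a difference of -0.44, Tmem178 of -0.38 and Lhfpl4, whose product anchors GABA-A receptors, of 0.37. The remaining 18 relatives lay below the filter in both arrays, among them the lens gene Lim2 and the lymphocyte gene Nkg7.

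Claudins, the strand-forming proteins of tight junctions, were called in neither direction. Among all genes passing the filter, 0.92% were called higher and 0.768% lower, so a short list without a call shows little. Of 24 claudins listed, 23 were measured and 7 passed the filter, and the median over the 23 was 0.04. Among the 7 that passed, the largest differences were those of Cldn6, a claudin of early embryonic epithelia, at -0.52, of Cldn5, the endothelial claudin, at 0.45, of Cldn4 at -0.45 and of Cldn7 at 0.26. Cldn5 passed through the plus doxycycline array alone, at 6.38 without the drug. The claudins that passed the filter thus lay on both sides of 0, all nearer to it than Perp.

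Perp is a desmosomal gene, so the other parts of that junction were examined. Of 17 listed desmosome genes, 15 were measured and 9 passed the filter, of which 1 was higher and 0 lower, with a median of 0.03. Shares over all genes passing the filter were 0.92% higher and 0.768% lower. The higher gene was Dsp, which encodes desmoplakin, the link from desmosomes to keratin filaments, with 8.08 in the plus doxycycline array and 6.99 in the no doxycycline array, or 2.12-fold. The plakophilin genes Pkp1 and Pkp2 had opposite signs, at 0.75 and -0.76, and the desmosomal cadherin Dsg2, chief of its kind in simple epithelia, had -0.15. Pkp1 passed the filter through the plus doxycycline array alone, at 6.46 without the drug. Jup, which encodes plakoglobin and was named after its value was seen, had 0.11.

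**Figure D3:**
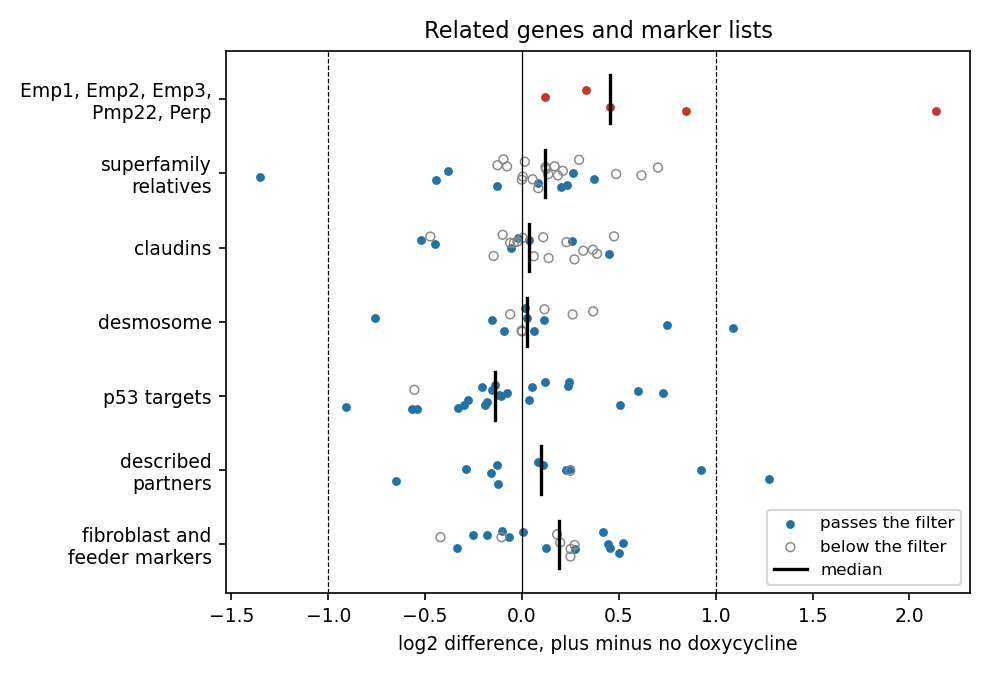
Log2 differences, plus minus no doxycycline, are plotted on the x axis for the 5 genes (red, top row) and for the genes of 6 lists (blue where they pass the filter, open grey where they do not), with each row's median as a black bar and 2-fold as dashed lines; vertical scatter within a row is for legibility. The medians of these 6 lists, which include genes below the filter, lie between -0.14 and 0.19. That of the 5 chosen genes, which all pass, is 0.46. Among the lists not drawn, the keratinocyte markers had a median of 0.31 and the embryonic stem cell markers one of -0.46.

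Perp is also a target of p53. Of 26 other p53 targets listed, 23 were measured and 22 passed the filter, 0 of them higher and 0 lower, and the median over the 23 was -0.14. With 0.92% of all genes passing the filter called higher and 0.768% lower, 22 genes without a call show little. The kinase gene Plk3 had -0.91 and Pidd1, a gene of the death-domain pathway, -0.57. Dram1, which acts in autophagy, had 0.73 and Tigar, a regulator of glycolysis, 0.60. Cdkn1a, Bax, Gdf15 and Trp53 itself were not analysed here. Of the other p53 family genes, Trp73 had -0.26 and passed the filter through the no doxycycline array alone, at 6.35 with the drug. Trp63, the regulator of Perp in mouse skin, was below the filter with 5.88 in the plus doxycycline array and 5.75 in the no doxycycline array.

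The next list held proteins described as partners of EMP, PMP22 or PERP proteins, such as integrins and chaperones. Of 14 genes listed, 12 were measured and 11 passed the filter, of which 1 was higher and 0 lower, and the median over the 12 was 0.10. For all genes passing the filter, the shares were 0.92% higher and 0.768% lower. The integrin subunit gene Itgb3 had 7.65 in the plus doxycycline array and 6.38 in the no doxycycline array, or 2.42-fold higher. The second value lies below the filter, so Itgb3 passed through the plus doxycycline array alone. Itgav, which encodes the usual partner subunit of the product of Itgb3, had -0.29. Itgb4, whose product pairs with integrin alpha 6 at hemidesmosomes, was under 2-fold at 0.93, and the kinase gene Src had -0.65.

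Markers of other cell types were read beside these values. Of 20 fibroblast and feeder cell markers, 13 passed the filter and 0 were called. Calls were also few among all genes passing the filter, at 0.92% higher and 0.768% lower. Positive differences were found in 13 of the 20, with a median of 0.19 over all 20 and of 0.13 over those passing the filter. Among genes passing the filter, Fbln2 (0.52), Col1a2 (0.50), Col5a1 (0.45) and Col1a1 (0.45) had the largest differences, while Fn1, Pdgfrb and Loxl1, named after their values were seen, had -0.33, -0.25 and -0.18. Pdgfrb passed through the no doxycycline array alone, at 6.38 with the drug, which favours a negative difference. The summed linear signal of the list, which adds up probes of unlike brightness, was 6384 with doxycycline and 7056 without it, and without Fn1 it was 3303 with doxycycline and 3174 without it. Of 12 keratinocyte markers, 4 passed the filter and Krt17 was 2.33-fold higher, with a summed signal of 1919 with doxycycline and 1201 without it. When Sfn was left out, that sum was 986 with doxycycline and 669 without it. Itgb4 had 0.93, Sfn 0.81 and Lgals7 0.48, while the defining keratins Krt5 and Krt14 lay below the filter in both arrays, with the highest value of either 5.92. All 12 keratinocyte markers had positive differences, with a median of 0.31 over the 12 and of 0.87 over the 4 that passed the filter. Of those 4, Krt17 and Lgals7 passed through the plus doxycycline array alone, at 6.29 and 6.28 without the drug. Passing in that way favours positive differences, and the other 8 lay below the filter in both arrays. The part of these cell type markers in the values of Emp1 and Perp was not tested.

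Of 13 simple epithelium markers, 11 passed the filter, and the median was -0.07 over the 13 and -0.14 over the 11. Krt8 was 3.36-fold higher, and the summed signal was 6612 with doxycycline and 6250 without it, or 4538 with doxycycline and 5632 without it when Krt8 was left out. Crb3, which lay below the filter without doxycycline at 6.18, had 0.74, Cldn6 -0.52 and Spint1 -0.49. The keratin gene Krt18, named after its value was seen, passed the filter in both arrays and had 0.08. Of the 13 markers, 6 had positive differences and 7 negative ones. Of 12 Schwann cell and myelin markers, 9 were measured and 3 passed the filter (Pllp at 0.93, Cnp at -0.61 and Mbp at 0.10), with summed signals of 793 with doxycycline and 772 without it. When Cnp was left out, the sums were 617 with doxycycline and 503 without it. Pllp and Mbp passed through the plus doxycycline array alone, at 6.16 and 6.42 without the drug. Of 8 blood cell markers, Laptm5 at 0.59 and Cd68 at -0.20 passed the filter, and the pan-leukocyte marker Ptprc did not. The summed signal of the 8 was 1832 with doxycycline and 1378 without it, or 433 with doxycycline and 449 without it when Laptm5 was left out. In bulk RNA, fewer cells of a type and less RNA per cell cannot be told apart.

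All 12 embryonic stem cell markers passed the filter in these cells, with a median of -0.46 and a summed signal of 28928 with doxycycline and 38145 without it. The list includes the induced factors Pou5f1, Sox2 and Klf4, so the median and sum mix them with the other markers. Of the 12, 9 had negative differences and 3 positive ones. With doxycycline Sox2 was 2.01-fold lower, Utf1 had -0.95, Tfcp2l1 -0.89 and Tdgf1 -0.73. Nanog and Fgf4, named after their values were seen, had -0.13 and 0.003. The induced factors other than Sox2 had small positive differences, 0.41 for Pou5f1, 0.43 for Klf4 and 0.35 for Myc. The sources used here do not say whether the probes read the transgenes, so the factors do not check the label, and every direction above rests on the labels of the arrays.

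The genes whose signals lay nearest to those of Emp1 over the 2 arrays were Krt8, Id2 and Sfrp1. The search, here and for Perp, left out the members and genes with Gm-number or Rik symbols. Nearness was the Euclidean distance between pairs of log2 values, which was 0.36 for Krt8, 0.62 for Id2 and 0.79 for Sfrp1. Krt8, a keratin of simple epithelia, had 11.02 with doxycycline and 9.27 without it. Id2, an inhibitor of basic helix-loop-helix factors, had 10.89 with doxycycline and 8.85 without it, and Sfrp1, a secreted Wnt inhibitor, had 10.85 with doxycycline and 9.84 without it. For Perp the nearest genes were Prxl2a, Fig4 and Ak4, at distances of 0.16, 0.18 and 0.21, with differences of 0.64, 0.61 and 0.62. With 2 arrays and probe-dependent brightness, such nearness describes the signals and no more.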

How the data were processed

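RNA of 2 cultures was hybridised to whole-transcript oligonucleotide arrays, 1 array per group. The deposited table holds log2 values of 35556 probesets, made by the authors with Affymetrix Expression Console and RMA, per the submitters' processing notes. The sources used here give no version or build. The log2 scale was inferred from the values (2.49 to 14.2). Since RMA makes the array distributions alike, a shift of most transcripts together would be hidden, and differences of dim transcripts are compressed. The platform annotation assigned 21789 probesets to exactly 1 gene, 1621 to several and left 12146 unlisted. A gene's value was the mean of its own probesets, and 18939 of 19938 genes had 1. Differences are plus doxycycline minus no doxycycline, and calls need the filter and a 2-fold difference.

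The members, the 12 lists (183 genes, 171 measured) and the naming rule (the members, the induced factors, up to 4 genes per list by size of difference and any called gene, and the 3 nearest genes of Emp1 and Perp) were chosen with earlier results of these data known. Genes named below the filter, Jup, Fn1, Pdgfrb, Loxl1, Krt18, Nanog and Fgf4 were added after their values were seen. Promoter windows are from RefSeq. Values were computed in Python 3.11.15 with pandas 2.3.3, NumPy 2.4.6 and, for loess, statsmodels 0.14.6, and drawn with matplotlib 3.10.9.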

Additional observations from a re-analysis of the deposited data

How the results depend on the processing

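After 32 was added to the linear values, 66 genes were at least 2-fold higher and 49 lower, against 103 and 86 with the values as deposited, which follows from the added amount shrinking dim differences. At 1.5-fold, 363 genes were higher and 425 lower, and 2 members were higher. The other settings (no filter, a filter at the 60th percentile, loess centring, quantile normalization and the brightest probeset) kept the counts within 1.5 times, and 1 member was higher under each. For the filter settings that member count was fixed in advance, since Emp1 lies far above either filter and the other members are under 2-fold. Quantile normalization could move little, because RMA had already made the array distributions alike. Member differences were read under loess centring, quantile normalization, the added 32 and the brightest probeset. All 20 stayed positive and moved by less than 0.167, the within-gene SD of the log2 differences of probesets. For Pmp22, at 0.12, that margin is larger than the difference itself. Emp1 ranged from 2.08 to 2.15, Perp from 0.82 to 0.87, Emp2 from 0.37 to 0.49, Emp3 from 0.28 to 0.40 and Pmp22 from 0.10 to 0.14. The brightest probeset cannot change a member, since each has 1, so its values among the 20 were fixed in advance. No paired analysis was possible because the groups share 1 replicate number, with 1 array each. The number of arrays and the dim signal of Emp2, Emp3 and Pmp22 limit what these values can show.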

Other observations

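The chromosomal neighbours of the 5 genes were read from the gene order of the RefSeq table, after the values of the members had been seen. Of the 30 nearest measured neighbours, 3 on each side of each gene, 15 passed the filter and 0 were called in either direction, with a median difference of 0.04 and a range from -0.67 to 0.996. So few genes without a call show little beside the 0.92% called higher and 0.768% called lower among all genes passing the filter. Emp1, on chromosome 6, had no called neighbour. Its 6 neighbours lay between -0.35 and 0.10, and only Fam234b, at -0.04, passed the filter. The 6 neighbours of Perp on chromosome 10 lay between -0.67 and 0.08, with Ifngr1, an interferon gamma receptor gene, at the low end. Near Pmp22 on chromosome 11 all 6 differences were positive, from 0.06 to 0.996, but only 3 of these genes passed the filter. The heparan sulfate sulfotransferase gene Hs3st3b1, next to Pmp22, was just under 2-fold.

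The gene order also showed name families that recur beside the members. Emp1 lies next to Grin2b and Emp2 has Grin2a at offset 3 in the measured order, both genes for NMDA receptor subunits, and both were below the filter (differences of -0.15 for Grin2b and 0.50 for Grin2a). The tektin genes Tekt5 and Tekt3 lie next to Emp2 and Pmp22, with differences of 0.57 and 0.06. Tekt5 passed the filter through the plus doxycycline array alone, at 6.18 without the drug, and Tekt3 was below it in both arrays. The Golgi protein genes Tvp23a and Tvp23b lie 3 places from Emp2 and Pmp22, with -0.12 and 0.39. Gsg1, itself a PMP22-claudin relative, lies 2 places from Emp1 and differed by 0.0040, below the filter.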
